A study of Mus musculus with 5 samples.

Results

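The 10 genes described here are members of the Bcl2 family, which sets whether a cell survives or dies by the mitochondrial route: Bcl2, Bcl2l1, Mcl1, Bcl2a1b, Bcl2l11, Bid, Bbc3, Pmaip1, Bax and Bak1. They were chosen by symbol from the 52550 genes of the count table, and all 10 were among the 11766 genes with enough counts to be tested. Gene expression was measured by QuantSeq, a 3′ RNA sequencing method that reads the end of each polyadenylated transcript, in Lin-cKit+Sca1- (KL) cells, the sorted bone marrow fraction that holds committed myeloid progenitors. The BcorΔE9-10 group (3 libraries) had the genotype scl-Cre-ERT +; Bcorfl/y, in which Cre removes exons 9 and 10 of the X-linked gene Bcor, a component of a Polycomb repressive complex. The BcorWT group (2 libraries) had the genotype scl-Cre-ERT +; Bcorwt/y, so both groups carried the Cre and a single Bcor allele. All mice received tamoxifen by intraperitoneal injection, 1 mg on each of 5 days at 3 to 6 months of age, and cells were collected 20 weeks after tamoxifen. The Cre acts in haematopoietic stem cells, and the sorted cells can include descendants of stem cells that kept the allele. The labels do not say that the libraries came from separate animals, so p-values measure the spread between these libraries, which may be partly technical.

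Family members fall into 3 roles. Pro-survival proteins (Bcl2, Bcl-xL from Bcl2l1, Mcl1 and A1 from the Bcl2a1 genes) hold the effector proteins Bax and Bak in check, and the effectors, once released, permeabilise the outer mitochondrial membrane so that cytochrome c escapes and caspases are activated. BH3-only proteins (Bim from Bcl2l11, Bid, Puma from Bbc3 and Noxa from Pmaip1) bind the pro-survival proteins, and some also activate Bax and Bak directly. In the myeloid lineage Mcl1 is needed by stem cells, progenitors and neutrophils, and Bim takes part in the death of blood cells that lose cytokine support. Transcript level is only 1 layer of this control, since Bid is activated by cleavage and Mcl1 protein turns over quickly.

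Of the 10 members, 1 rose in BcorΔE9-10 KL cells. Bcl2l11, which codes for Bim, had a log2 fold change (log2FC) of 1.22 (SE 0.290, limma adjusted p = 0.0135). No member was called lower by limma, edgeR or DESeq2 (0 by each), with 1 member, Bak1, lower at an unadjusted limma p under 0.05 and 4 higher at that level. Among all genes tested, limma called 10.1% in either direction, 6.02% higher and 4.09% lower, and at the unadjusted level 13.8% were higher and 11.5% lower. With edgeR 2 members were called higher (Bcl2l11 and Pmaip1) and with DESeq2 1. Scaling by total counts alone moved the median of all genes by 0.14 and the calls over all genes from 708 higher and 481 lower to 1210 and 197, and with it 4 members were called higher. The median log2FC was 0.24 over the 10 members and 0.0043 over all genes tested. By role, the medians were 0.24 for the 4 pro-survival members, 0.84 for the 4 BH3-only members and -0.42 for the 2 effectors.

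The libraries held 5998924 to 8303999 counts each. Bcor had 168 to 196 counts in BcorΔE9-10 and 83 to 109 in BcorWT, but its counts come from the transcript end, outside the deleted exons, and do not check the genotype. Kit, whose protein was used in the sort, was at 49.4 to 53.4 counts per 1000000 (CPM) in BcorΔE9-10 and 18.2 to 19.6 CPM in BcorWT, while Ly6a, which codes for Sca1, had 3 to 8 counts in every library. Markers of mature neutrophils were lower in BcorΔE9-10 (limma called 8 of 14 tested lower and 0 higher, with 2 higher at an unadjusted p under 0.05, edgeR 8 and DESeq2 7), with a summed level of 150397 to 174295 CPM against 217232 to 229944 CPM. Markers of basophils, mast cells and eosinophils were also lower (10 of 13 tested, with 1 higher), at 629 to 895 CPM against 1425 to 1753 CPM. Of 8 tested erythroid markers, 7 had a positive log2FC with a median of 1.65. Limma called 1 of them higher and 0 lower, 6 were higher at an unadjusted limma p under 0.05, and edgeR called 5 and DESeq2 2. Their summed level was 66.1, 148 and 264 CPM in BcorΔE9-10 libraries 1, 2 and 3 and 26.6 and 71.1 CPM in BcorWT. Of 12 tested monocyte and dendritic cell markers, limma, edgeR and DESeq2 each called 1 lower and 0 higher, 3 were lower at an unadjusted limma p under 0.05, and their summed level was 1124 to 1242 CPM against 1469 to 1480 CPM. Of 7 tested lymphoid markers the 3 tools called 0, with 2 higher and 1 lower at the unadjusted level and a median log2FC of 1.15. Their summed level was 154 to 184 CPM against 193 to 203 CPM. Most of this sum was Nkg7, named after its values were seen, with 747 to 1388 counts in BcorΔE9-10 and 1239 to 1286 in BcorWT. No other lymphoid marker had more than 73 counts in a library. The B cell marker Ms4a1 had 0 counts in every library. Of 7 tested megakaryocyte markers the 3 tools also called 0, with 1 higher at the unadjusted level and a summed level of 369 to 388 CPM against 382 to 386 CPM. In bulk cells, fewer cells of a type and less RNA per cell cannot be told apart, and the part of these shifts in the values of the Bcl2 family was not tested.

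Among the BH3-only genes, Bcl2l11 (mm10, chromosome 2, 128126038 to 128162547, plus strand) had 114, 71 and 108 counts in BcorΔE9-10 libraries 1, 2 and 3, and 36 and 38 counts in BcorWT libraries 1 and 2. Its level was 13.5, 11.6 and 12.6 CPM in BcorΔE9-10 against 5.11 and 5.63 CPM in BcorWT. The groups were far apart, and the lowest BcorΔE9-10 library lay above the highest BcorWT library. The means were 12.6 ± 0.946 CPM (SD, n = 3) and 5.37 ± 0.367 CPM (SD, n = 2), and the 95% interval of the log2FC ran from 0.61 to 1.84. The adjusted p was 0.00701 with edgeR and 0.00521 with DESeq2. Without BcorWT library 1 the log2FC was 1.15 and the call was lost (limma adjusted p = 0.0961), with a single control whose spread was taken from the other group. No other gene shares exon bases with Bcl2l11, and none of the 30-base words in its last 300 transcript bases occurs in another gene.

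The RefSeq promoter windows of the family were read for short sequence motifs, because FoxO factors are known to act on Bcl2l11 and Bbc3 when cytokine signals fall. The windows cover 250 bases before and 50 after an annotated start (GRCm38.p6), and 14 windows were given for 9 of the members. The FoxO core GTAAACA, searched on both strands, was in 3.65% of 32851 mouse windows, and in windows of 2 members, Bcl2l11 and Bbc3. Both windows are given here 5′ to 3′ on the plus strand with the match in capitals, at chr2:128125788-128126087 for Bcl2l11 and chr7:16310011-16310310 for Bbc3.
Bcl2l11: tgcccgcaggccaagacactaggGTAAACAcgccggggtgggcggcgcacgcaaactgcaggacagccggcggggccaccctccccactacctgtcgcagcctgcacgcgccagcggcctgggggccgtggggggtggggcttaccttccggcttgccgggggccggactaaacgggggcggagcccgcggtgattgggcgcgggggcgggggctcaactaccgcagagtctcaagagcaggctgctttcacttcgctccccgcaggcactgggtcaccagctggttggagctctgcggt
Bbc3: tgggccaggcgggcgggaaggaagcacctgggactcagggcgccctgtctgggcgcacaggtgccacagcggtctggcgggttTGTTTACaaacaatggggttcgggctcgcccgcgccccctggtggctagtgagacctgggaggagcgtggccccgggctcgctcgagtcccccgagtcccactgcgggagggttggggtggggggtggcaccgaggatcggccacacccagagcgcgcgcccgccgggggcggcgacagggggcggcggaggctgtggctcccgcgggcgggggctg
The match begins 227 bases before the annotated start of that window in Bcl2l11 and 167 bases before that of the window in Bbc3. In Bbc3 it reads TGTTTAC, the same motif on the other strand. The Bbc3 window lies inside the gene, downstream of the gene start at 16308393. Both genes also have windows at other annotated starts that lack the core. A match is a description of letters and not a binding site.

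The other motifs searched, each on both strands, were found in few windows of the family. The E-box CACGTG (7.15% of all windows) was in windows of Bax and Bbc3, the AP-1 motif TGANTCA (7.81%) in that of Bcl2a1b, and the Ets motif CCGGAAGT (3.89%) and the E2F motif TTTNGCGC (1.38%) in windows of Bcl2l1. The CRE motif TGACGTCA (1.79%) was in 0 windows of the members. Foxo3, the FoxO gene named here for its link to Bim and chosen after its values were seen, was at 37.1, 29.7 and 27.5 CPM in BcorΔE9-10 and 31.8 and 27.9 CPM in BcorWT. Its groups overlapped, with a log2FC of 0.07 (SE 0.179, limma adjusted p = 0.853).

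Pmaip1 (chromosome 18, 66458604 to 66465550, plus strand), which codes for Noxa, a partner of Mcl1, had the largest fold change of the 10 members but few counts. It had 51, 37 and 38 counts in BcorΔE9-10 and 17 and 12 in BcorWT. The corresponding levels were 6.03, 6.04 and 4.44 CPM against 2.41 and 1.78 CPM, and the groups did not overlap. Its log2FC was 1.34 (SE 0.463, 95% interval 0.36 to 2.32) and did not pass the test (limma adjusted p = 0.0777). The adjusted p was 0.0415 with edgeR and 0.0622 with DESeq2, so this gene lay at the threshold and its call depends on the tool.

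Bid (chromosome 6, 120891930 to 120916853, minus strand), which links death receptors to mitochondria, was the BH3-only member with the most counts. It had 559, 574 and 629 counts in BcorΔE9-10 and 405 and 362 in BcorWT, or 66.1, 93.7 and 73.5 CPM against 57.5 and 53.6 CPM. BcorΔE9-10 library 2 was highest, and every BcorΔE9-10 library was above both BcorWT libraries. Its log2FC of 0.46 (SE 0.157, 95% interval 0.12 to 0.79) did not pass the test (limma adjusted p = 0.0769). Without library 2, the highest, it was 0.33 (limma adjusted p = 0.211), and without BcorΔE9-10 library 1 it was 0.57 and passed (limma adjusted p = 0.0478). Leaving out any other library gave an adjusted p of 0.141 to 0.178 (limma). The last exons of Bid and Bcl2l13, another family gene, share 628 bases on opposite strands. Whether counting used strand is not given in the sources used here, so their reads may be mixed. Bcl2l13 itself was at 13.1 to 19.1 CPM in BcorΔE9-10 and 14.2 to 16.6 CPM in BcorWT, with overlapping groups.

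Bbc3 (chromosome 7, 16308393 to 16318205, plus strand), a p53 target that codes for Puma, had 49, 35 and 40 counts in BcorΔE9-10 and 54 and 26 in BcorWT. Its levels of 5.79, 5.71 and 4.67 CPM in BcorΔE9-10 lay between the BcorWT values of 7.67 and 3.85 CPM. The log2FC was -0.04 (SE 0.357, limma adjusted p = 0.960), and its 95% interval of -0.79 to 0.71 leaves room for a change of either sign.

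Among the pro-survival genes, Mcl1 (chromosome 3, 95658788 to 95663176, plus strand) had the highest level in every library, with 201, 175 and 178 CPM in BcorΔE9-10 and 193 and 172 CPM in BcorWT. The groups overlapped, and the difference was the most narrowly bounded of the 10 members. Its log2FC was 0.02 (SE 0.116, 95% interval -0.22 to 0.27, limma adjusted p = 0.937).

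Bcl2 and Bcl2l1 differed in opposite directions without passing the test. Bcl2 (chromosome 1, 106538178 to 106714274, minus strand), which names the family, had 320, 206 and 275 counts in BcorΔE9-10 and 189 and 159 in BcorWT, or 37.8, 33.6 and 32.1 CPM against 26.8 and 23.6 CPM. All 3 BcorΔE9-10 libraries were above both BcorWT libraries. The log2FC was 0.45 (SE 0.171, 95% interval 0.09 to 0.82, limma adjusted p = 0.107), and it was 0.24 after a correction for the GC content of transcript ends (limma adjusted p = 0.444). The last 300 transcript bases of Bcl2 held 32.7% GC, the lowest of the 10 members, and an antisense gene shares 558 of its exon bases. Bcl2l1 (chromosome 2, 152780668 to 152831728, minus strand), whose main product Bcl-xL protects erythroid cells and platelets, had 134, 95 and 148 counts against 149 and 146. Its levels were 15.8, 15.5 and 17.3 CPM in BcorΔE9-10 and 21.2 and 21.6 CPM in BcorWT, so that both BcorWT libraries were above all 3 BcorΔE9-10 libraries. The log2FC was -0.40 (SE 0.189, 95% interval -0.79 to 0.0039, limma adjusted p = 0.203).

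Bcl2a1b (chromosome 9, 89199209 to 89207827, plus strand) codes for a form of A1, a pro-survival protein of myeloid and lymphoid cells. It was the least counted member, with 33, 23 and 14 counts in BcorΔE9-10 and 10 and 7 in BcorWT, or 3.90, 3.75 and 1.64 CPM against 1.42 and 1.04 CPM. BcorΔE9-10 library 3 lay just above the BcorWT libraries. Its log2FC was 1.15 (SE 0.652, limma adjusted p = 0.287). Of the 30-base words in the last 300 bases of its transcript, 83.4% also occur in Bcl2a1d and 62.7% in Bcl2a1a, so reads of the 3 copies cannot be separated with confidence. Bcl2a1b also shares 401 exon bases with a predicted gene on its own strand. The counts of the 3 copies together were 122, 82 and 44 in BcorΔE9-10 and 17 and 49 in BcorWT, or 14.4, 13.4 and 5.14 CPM against 2.41 and 7.26 CPM. For the copies together the groups overlapped, with a log2FC of 1.21 (limma adjusted p = 0.165) in a fit chosen after seeing the data.

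Neither effector passed the test. Bak1 (chromosome 17, 27019810 to 27029009, minus strand) had 252, 153 and 243 counts in BcorΔE9-10 and 247 and 261 in BcorWT, or 29.8, 25.0 and 28.4 CPM against 35.1 and 38.7 CPM. Both BcorWT libraries were above the 3 BcorΔE9-10 libraries. The log2FC was -0.40 (SE 0.161, 95% interval -0.74 to -0.06), which did not pass the test (limma adjusted p = 0.128), and it was -0.28 after GC correction (limma adjusted p = 0.311). Bak1 shares 177 and 437 exon bases with gene models of Ggnbp1 on the opposite strand, so its counts may hold reads of both. Bax (chromosome 7, 45461697 to 45466898, minus strand), the effector held in the cytosol until activation, had 44, 23 and 23 counts against 52 and 23. Its levels of 5.20, 3.75 and 2.69 CPM in BcorΔE9-10 overlapped those of 7.38 and 3.41 CPM in BcorWT, with a log2FC of -0.43 (SE 0.419, limma adjusted p = 0.559). In BcorWT the Bax levels of the 2 libraries were as far apart as those of Bbc3. Bax also shares 192 exon bases with a predicted gene on its own strand.

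**Figure D1:**
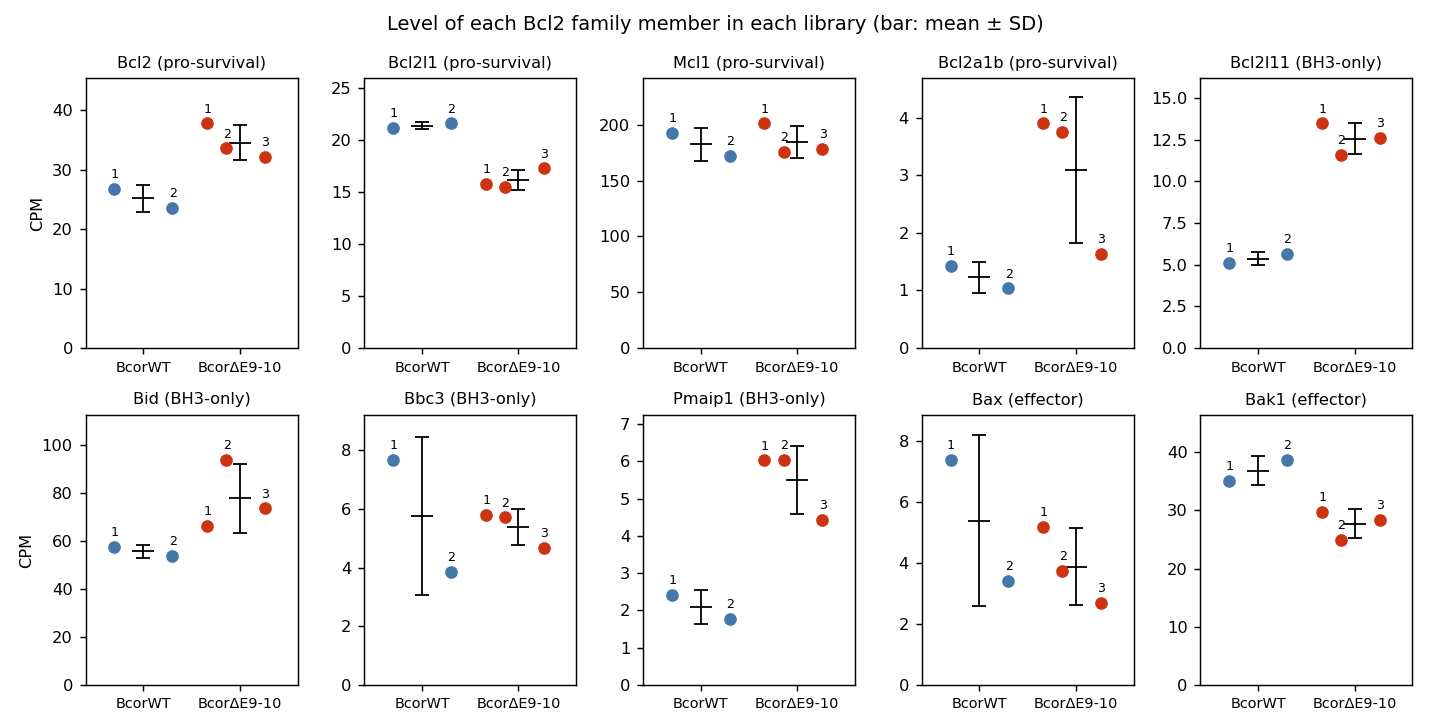
Level of each of the 10 members in CPM (y axis, starting at 0) in the 2 BcorWT libraries (blue) and the 3 BcorΔE9-10 libraries (red), numbered by replicate, with bars for the mean ± SD. Bcl2l11 lies at 11.6 to 13.5 CPM in BcorΔE9-10 and 5.11 to 5.63 CPM in BcorWT, while Mcl1, Bbc3 and Bax overlap between the groups.

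Counted over the members, the groups did not overlap for 5 genes higher in BcorΔE9-10 (Bcl2, Bcl2a1b, Bcl2l11, Bid and Pmaip1) and for 2 genes lower (Bcl2l1 and Bak1). Among all genes tested, 22.6% were non-overlapping and higher and 20.3% non-overlapping and lower. With groups of 3 and 2 libraries such a separation is common, and it is given as a description of the values.

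**Figure D2:**
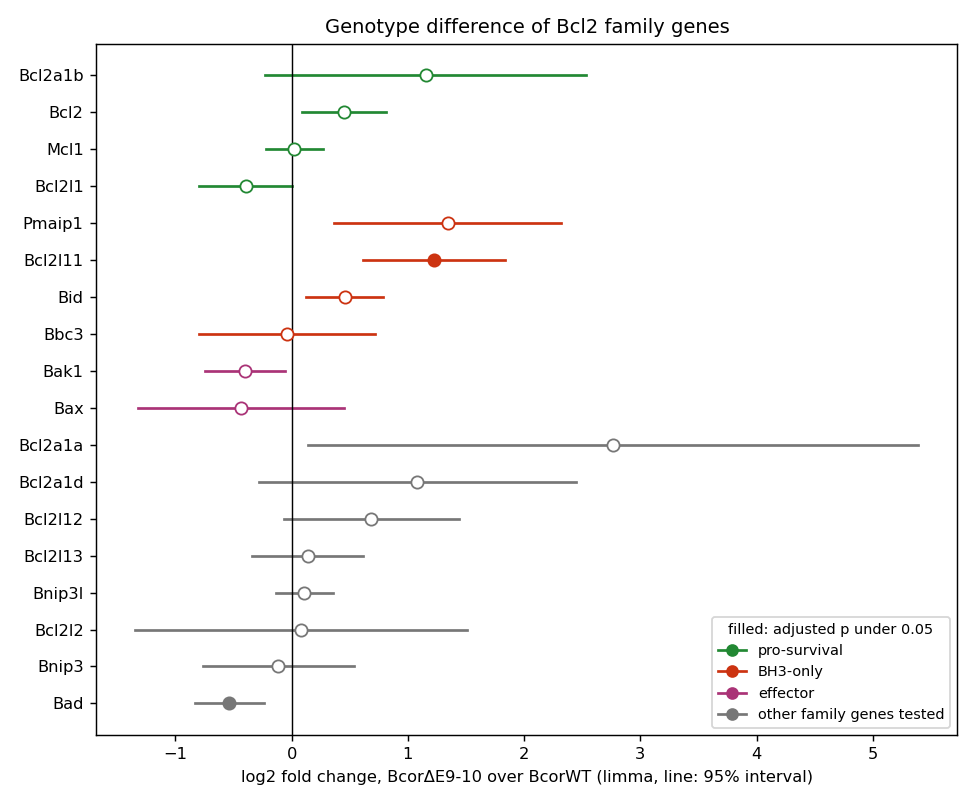
Log2 fold change of BcorΔE9-10 over BcorWT (x axis) for the 10 members and the other 8 family genes tested (y axis), coloured by role, with lines for the 95% interval of the limma fit and filled points for an adjusted p under 0.05. Bcl2l11 at 1.22 and Bad at -0.54 are the filled points, and the interval of Mcl1, from -0.22 to 0.27, is the narrowest of the 10 members.

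Levels of different members are set side by side without division by length, because QuantSeq reads 1 end per transcript. Bcl2, Bid, Bak1, Bax and Bcl2a1b share exon bases with other genes, which may add or remove reads. The members also differ in the GC content of their transcript ends. The order given here is that of the counts and may not be that of the transcripts. In BcorWT the order was Mcl1, Bid, Bak1, Bcl2 and Bcl2l1, each above the next in both libraries. Below them Bbc3 (3.85 to 7.67 CPM), Bax (3.41 to 7.38 CPM) and Bcl2l11 (5.11 to 5.63 CPM) did not differ beyond their spread, and Pmaip1 and Bcl2a1b came last. In BcorΔE9-10 the order was Mcl1, Bid, Bcl2, Bak1, Bcl2l1 and Bcl2l11, again without overlap. Pmaip1 (4.44 to 6.04 CPM), Bbc3 (4.67 to 5.79 CPM), Bax (2.69 to 5.20 CPM) and Bcl2a1b (1.64 to 3.90 CPM) followed, and each of them overlapped its neighbour.

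Bcl2 and Bak1 changed places. Bak1 was above Bcl2 in both BcorWT libraries, at 35.1 and 38.7 CPM against 26.8 and 23.6 CPM, and Bcl2 was above Bak1 in all 3 BcorΔE9-10 libraries. Neither gene passed the test on its own, and the exchange is a description of the 5 libraries. The ends of their transcripts differ in GC content, 32.7% for Bcl2 and 53.7% for Bak1. The difference between their log2FC values was 0.86, and 0.52 after GC correction. In BcorWT the gap between them was 0.55 (log2 of the mean CPM), taken from levels without the correction. The correction also shifts the BcorWT levels, so 0.52 and 0.55 cannot be set against each other. Whether the genes would still change places after the correction was not tested. Bcl2l11 moved from the group of weakly expressed genes to a level near that of Bcl2l1. For every 100 counts of Bcl2 there were 35.6, 34.5 and 39.3 counts of Bcl2l11 in BcorΔE9-10 and 19.0 and 23.9 in BcorWT. For every 100 counts of Mcl1 there were 6.70, 6.61 and 7.09 counts of Bcl2l11 against 2.65 and 3.27. Set against either pro-survival gene of the same library, Bcl2l11 was thus higher in each of the BcorΔE9-10 libraries. The ratio of Bcl2l1 to Bcl2 went the other way, with 41.9, 46.1 and 53.8 counts of Bcl2l1 per 100 counts of Bcl2 in BcorΔE9-10 and 78.8 and 91.8 in BcorWT.

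Within the pro-survival group Mcl1 supplied most counts in both genotypes. Its share was 77.8% (95% Wilson interval 76.0 to 79.4), 76.8% (74.5 to 79.0) and 77.7% (75.8 to 79.5) in BcorΔE9-10 and 79.6% (77.6 to 81.4) and 78.8% (76.7 to 80.8) in BcorWT. The intervals, which cover counting error only, overlapped between the genotypes. Bcl2 supplied 14.6%, 14.7% and 14.0% of these counts in BcorΔE9-10 and 11.1% and 10.8% in BcorWT. The summed level of the 4 pro-survival members was 228 to 259 CPM in BcorΔE9-10 and 218 to 242 CPM in BcorWT, with overlapping groups.

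The summed BH3-only members did not overlap between the genotypes, at 91.4, 117.0 and 95.2 CPM in BcorΔE9-10 and 72.7 and 64.9 CPM in BcorWT. Bad, a BH3-only gene that is not a member, is outside this sum and was lower in BcorΔE9-10. It was at 40.7, 37.5 and 44.2 CPM against 60.4 and 58.2 CPM in BcorWT. The separation therefore describes the listed members and not all BH3-only genes. Most of these counts came from Bid, with 72.3% to 80.1% of the BH3-only counts in BcorΔE9-10 and 79.1% to 82.6% in BcorWT, so the sum follows Bid more than Bcl2l11. Bcl2l11 supplied 14.7% (12.4 to 17.4), 9.90% (7.93 to 12.3) and 13.3% (11.1 to 15.8) of BH3-only counts in BcorΔE9-10 and 7.03% (5.12 to 9.58) and 8.68% (6.39 to 11.7) in BcorWT. The interval of BcorΔE9-10 library 2, which also had the highest Bid level, overlapped both BcorWT intervals, and that of BcorΔE9-10 library 3 overlapped the interval of BcorWT library 2. Of the BH3-only and pro-survival counts together, BH3-only members took 26.1% (24.5 to 27.7), 33.9% (31.9 to 35.9) and 29.4% (27.7 to 31.1) in BcorΔE9-10 and 23.1% (21.4 to 24.9) and 22.9% (21.1 to 24.9) in BcorWT. Each BcorΔE9-10 share was above both BcorWT shares, with an overlap of the intervals for BcorΔE9-10 library 1 alone. Bad is outside these shares too, with 344, 230 and 378 counts in BcorΔE9-10 and 425 and 393 in BcorWT. The shares depend on that choice and do not give the balance of the whole family. The summed effectors were at 28.7 to 35.0 CPM in BcorΔE9-10 and 42.1 to 42.5 CPM in BcorWT.

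**Figure D3:**
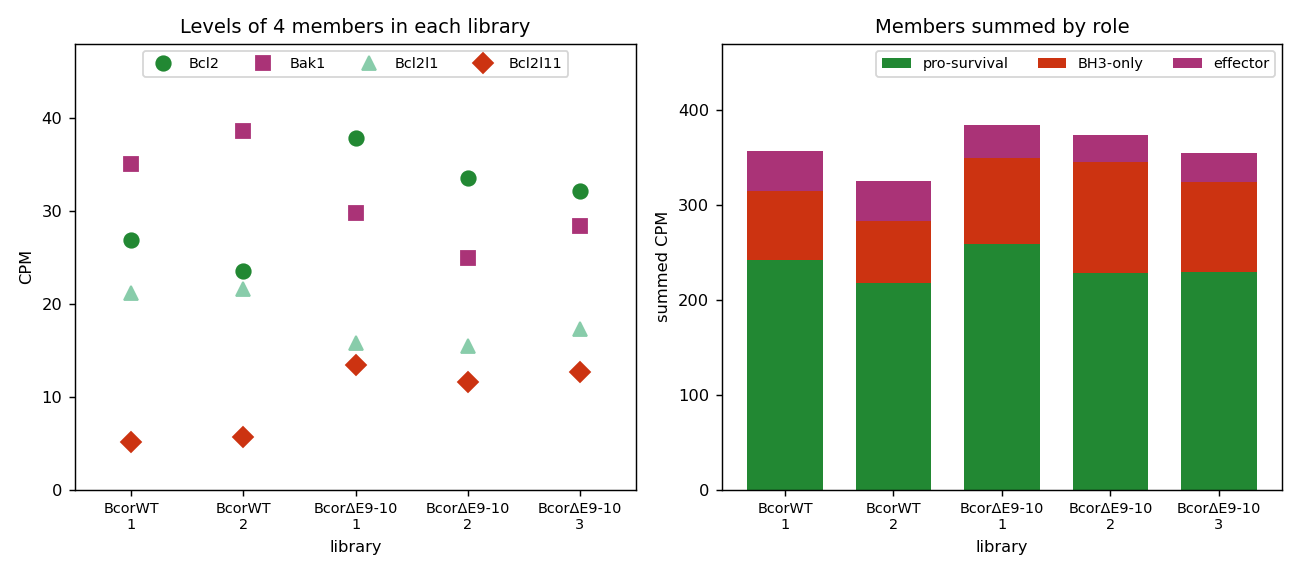
Left, levels in CPM (y axis) of Bcl2, Bak1, Bcl2l1 and Bcl2l11 in each library (x axis), and right, CPM summed over the 4 pro-survival, 4 BH3-only and 2 effector members as stacked bars. Bak1 is above Bcl2 in both BcorWT libraries and below it in the 3 BcorΔE9-10 libraries, and the BH3-only segment is 91.4 to 117.0 CPM in BcorΔE9-10 and 64.9 to 72.7 CPM in BcorWT.

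Other genes of the family showed 1 call. Of 14 listed, 8 were tested, with a median log2FC of 0.12. Limma called 0 of the 8 higher and 1 lower, where it called 10.1% of all genes tested. At an unadjusted p under 0.05, 1 of the 8 was higher and 1 lower, and edgeR and DESeq2 each called 1. The gene that fell was Bad, a BH3-only gene whose product is kept inactive by phosphorylation when growth factors are present. Bad (chromosome 19, 6941861 to 6951898, plus strand) had 344, 230 and 378 counts in BcorΔE9-10 and 425 and 393 in BcorWT, or 40.7, 37.5 and 44.2 CPM against 60.4 and 58.2 CPM. Both BcorWT libraries were above all BcorΔE9-10 libraries, with a log2FC of -0.54 (SE 0.142, limma adjusted p = 0.0240). The call was lost after GC correction (-0.41, limma adjusted p = 0.0847) and with scaling by total counts alone (-0.39, limma adjusted p = 0.104). It was also lost without BcorΔE9-10 library 1 (-0.53, limma adjusted p = 0.0689) or BcorΔE9-10 library 2 (-0.48, limma adjusted p = 0.0747). Without BcorWT library 1, which left a single control, the log2FC was -0.51 and not called. Bad shares 524 exon bases with a gene on the opposite strand.

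The mitophagy-linked Bnip3l was the most abundant of these other genes, at 167 to 193 CPM in BcorΔE9-10 and 163 to 174 CPM in BcorWT, with overlapping groups. Bcl2a1a had 40, 30 and 13 counts in BcorΔE9-10 and 0 and 22 in BcorWT, and Bcl2a1d had 49, 29 and 17 against 7 and 20, both subject to the sharing of reads described for Bcl2a1b. Bcl2l10, Hrk and Bok had 0 counts in every library, and Bik, Bmf and Bcl2l14 had too few counts to be tested.

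The wider apoptosis pathway was read from 6 lists of 94 genes, of which 86 were tested. Limma called 7 higher and 2 lower, or 10.5%, near the 10.1% of all genes, and the median log2FC was -0.019. Downstream of the mitochondria, none of the 17 genes of the apoptosome and caspase list was called by limma, edgeR or DESeq2 (0 by each), and 2 were higher at an unadjusted limma p under 0.05. Their log2FC values ran from -0.22 to 0.46 with a median of 0.0068. Cycs, the cytochrome c gene, was at 104 ± 6.11 CPM (SD, n = 3) in BcorΔE9-10 and 104 ± 12.6 CPM (SD, n = 2) in BcorWT, and was chosen after its values were seen. Of the death receptor genes, which act upstream of Bid, 10 of 12 were tested, and 0 were called by any of the 3 tools or at an unadjusted limma p under 0.05, with a median of -0.13.

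Inhibitors of apoptosis moved in both directions, with 2 of 8 called higher and 1 lower. Birc2, a ubiquitin ligase that restrains death signalling from tumour necrosis factor receptors, rose to 23.5 ± 1.21 CPM (SD, n = 3) in BcorΔE9-10 against 13.2 ± 0.219 CPM (SD, n = 2) in BcorWT, a log2FC of 0.83 (limma adjusted p = 0.0164). With a single control left, its log2FC was 0.84 without BcorWT library 1 and 0.82 without BcorWT library 2, and it was called in neither fit. Xiap, the direct caspase inhibitor, was at 45.0, 39.7 and 52.5 CPM in BcorΔE9-10 and 18.5 and 36.5 CPM in BcorWT, with a log2FC of 0.82 (limma adjusted p = 0.0288). The BcorWT libraries differed widely for Xiap, and without BcorWT library 1 the log2FC was 0.32 and not called, nor was it without BcorΔE9-10 library 3 (0.70, limma adjusted p = 0.109). The end of its transcript holds 26.7% GC, and after GC correction the log2FC was 0.45 (limma adjusted p = 0.230). Birc5, which codes for survivin, a protein of dividing cells, fell from 415 and 509 CPM in BcorWT to 332 to 362 CPM (log2FC -0.40, limma adjusted p = 0.0262). With scaling by total counts alone Birc5 was not called (-0.26, limma adjusted p = 0.155), nor was it without BcorWT library 2 (-0.25), BcorΔE9-10 library 1 (-0.40, limma adjusted p = 0.0817) or BcorΔE9-10 library 2 (-0.37, limma adjusted p = 0.0584).

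In the list of p53 and its targets, to which Bbc3, Pmaip1 and Bax are also linked, 15 of 18 genes were tested, limma called 2 higher and 0 lower, and the median was -0.084. Both edgeR and DESeq2 called 4 each, the same 2 higher and, lower, Sesn2 (log2FC -1.25) and Btg2 (-0.58), named after their values were seen. At an unadjusted limma p under 0.05, 4 were higher and 4 lower, so the list had no common direction. Trp53 itself had 84, 46 and 81 counts in BcorΔE9-10 and 26 and 16 in BcorWT, or 9.93, 7.51 and 9.47 CPM against 3.69 and 2.37 CPM. Its groups were well apart, with a log2FC of 1.58 (SE 0.391, limma adjusted p = 0.0173). With a single control left, the log2FC of Trp53 was 1.89 without BcorWT library 1 and 1.28 without BcorWT library 2, and it was called in neither fit. Gtse1, which codes for a cell-cycle protein that binds p53, was at 20.4 to 22.9 CPM against 6.39 and 15.6 CPM, and its log2FC of 1.12 (limma adjusted p = 0.0208) was 0.46 without BcorWT library 1 and 1.05 without BcorΔE9-10 library 3 (limma adjusted p = 0.0669), neither called.

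Of the genes that control BH3-only transcription or Mcl1 turnover, 16 of 18 were tested, limma called 1 higher and 0 lower, and the median was -0.083. For this list edgeR called 1 and DESeq2 2, the second being E2f1, which was lower (log2FC -0.41, DESeq2 adjusted p = 0.0487) and was named after its values were seen. The gene that rose, Tmbim6, codes for an inhibitor of Bax-induced death in the endoplasmic reticulum membrane, and was at 167, 156 and 188 CPM in BcorΔE9-10 and 112 and 125 CPM in BcorWT. Its log2FC was 0.53 (SE 0.123, limma adjusted p = 0.0125). It was 0.44 and not called without BcorΔE9-10 library 3 or without BcorWT library 1. Among the genes of cytokine survival signalling, 20 of 21 were tested, 2 were higher and 1 lower, with a median of -0.028. Kit, the receptor for stem cell factor, rose with a log2FC of 1.43 (limma adjusted p = 9.8e-05), and its protein was also used to sort the cells. Csf2rb, the shared receptor chain for interleukin-3, interleukin-5 and GM-CSF, was at 65.8, 66.9 and 74.7 CPM in BcorΔE9-10 and 127 and 120 CPM in BcorWT, with a log2FC of -0.84 (SE 0.123, limma adjusted p = 0.000506). Kit and Csf2rb kept their calls without any 1 of the 5 libraries. Myb, a transcription factor of progenitors, was at 298 to 320 CPM in BcorΔE9-10 against 220 and 239 CPM in BcorWT (log2FC 0.41, limma adjusted p = 0.0201), and was not called without BcorΔE9-10 library 1 (0.38), BcorΔE9-10 library 3 (0.42) or BcorWT library 2 (0.36).

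**Figure D4:**
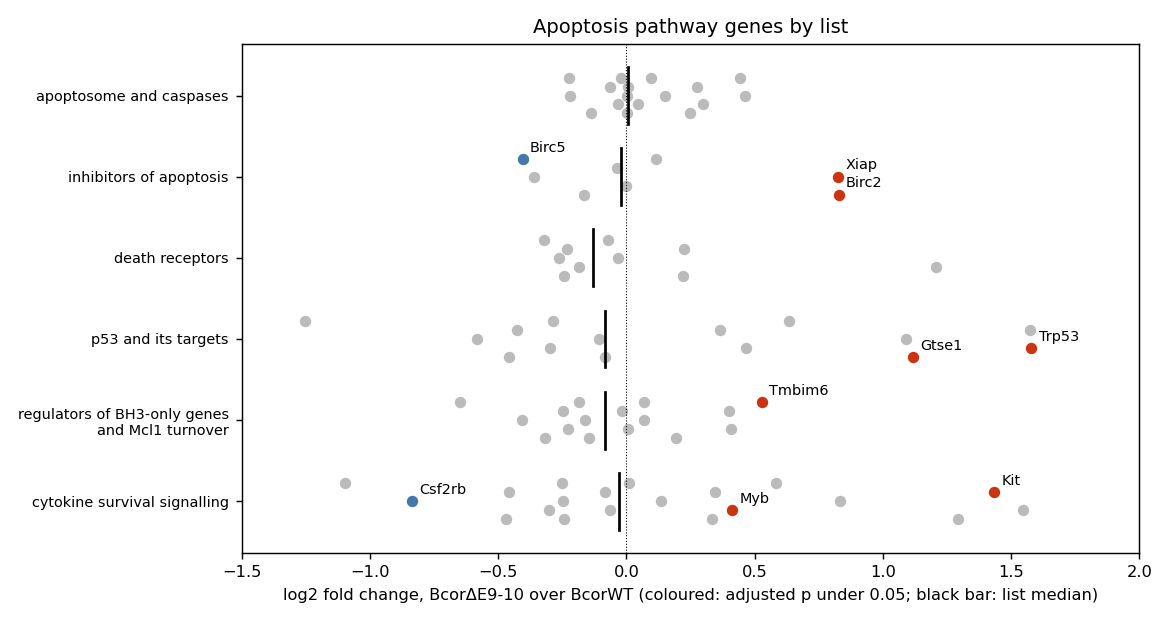
Log2 fold change of BcorΔE9-10 over BcorWT (x axis) for the tested genes of 6 apoptosis pathway lists (y axis), with a black bar at each list's median and genes past an adjusted p of 0.05 in colour and named. The 7 genes called higher and 2 called lower are spread over 4 lists, and the list medians lie between -0.13 and 0.0068.

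Immediate-early and heat shock genes, whose levels can move while cells are isolated, were examined beside the family. Of the 13 immediate-early genes tested, limma called 4 higher (Fos, Fosb, Nr4a1 and Klf6) and 0 lower, with a median log2FC of 0.15. DESeq2 called neither Fosb (adjusted p = 0.313) nor Klf6 (adjusted p = 0.258), and both edgeR and DESeq2 called Btg2 lower. After GC correction Klf6 was not called (limma adjusted p = 0.286). Fos, a subunit of AP-1, was at 334, 333 and 209 CPM in BcorΔE9-10 and 107 and 69.6 CPM in BcorWT (log2FC 1.71), and was called without any 1 of the 5 libraries. Nr4a1 was not called without BcorΔE9-10 library 1 (1.42), BcorΔE9-10 library 3 (1.31) or BcorWT library 1 (1.10). The 3 heat shock genes on the same list were called lower by limma, Hspa1a (-0.99), Hspa1b (-1.31) and Dnajb1 (-0.76). Together they were at 320, 547 and 766 CPM in BcorΔE9-10 and 1465 and 777 CPM in BcorWT, so the groups were apart by a small margin between BcorΔE9-10 library 3 and BcorWT library 2. Without BcorWT library 1, the highest, Hspa1b (-0.84) and Dnajb1 (-0.38) were not called. DESeq2 called neither Hspa1b (adjusted p = 0.195) nor Hspa1a (adjusted p = 0.397), and Hspa1a was also not called by edgeR (adjusted p = 0.0672) or after GC correction (limma adjusted p = 0.0529). The summed level of the other immediate-early genes, 2075, 1692 and 1289 CPM against 1727 and 987 CPM, overlapped between the groups. Fosb, Klf6 and Hspa1a were named, and the heat shock genes set apart, after their values were seen. The part of either set in the values of Bcl2l11 or Pmaip1 was not tested.

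The 3 genes whose pattern over the 5 libraries was most like that of Bcl2l11, by Euclidean distance of centred log2 CPM among 6842 genes, were Wdr20 (distance 0.186), Gnas (0.190) and Rev1 (0.201). Gnas, which codes for the stimulatory G protein alpha subunit, was at 84.4 to 85.9 CPM in BcorΔE9-10 and at most 38.2 CPM in BcorWT. Rev1, a translesion polymerase gene, was at 31.2 to 38.0 CPM against 13.3 to 14.5 CPM, and Wdr20 at 12.2 to 12.4 CPM against 5.54 to 5.93 CPM. With 5 libraries in 2 groups, any gene with a like fold change and a small spread comes close in this measure.

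How far these values move with the fit was checked for each member. Of 11 alternative fits that kept every library, Pmaip1 was called in 3, Bid in 3, of which 2 used a replicate block whose numbers did not pair the libraries, and Bcl2 in 1, and Bcl2l1, Bak1, Mcl1, Bax and Bbc3 in 0. The log2FC of Bak1 ran from -0.44 to -0.26 over these fits and that of Bcl2l1 from -0.45 to -0.25, so neither changed direction.

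**Figure D5:**
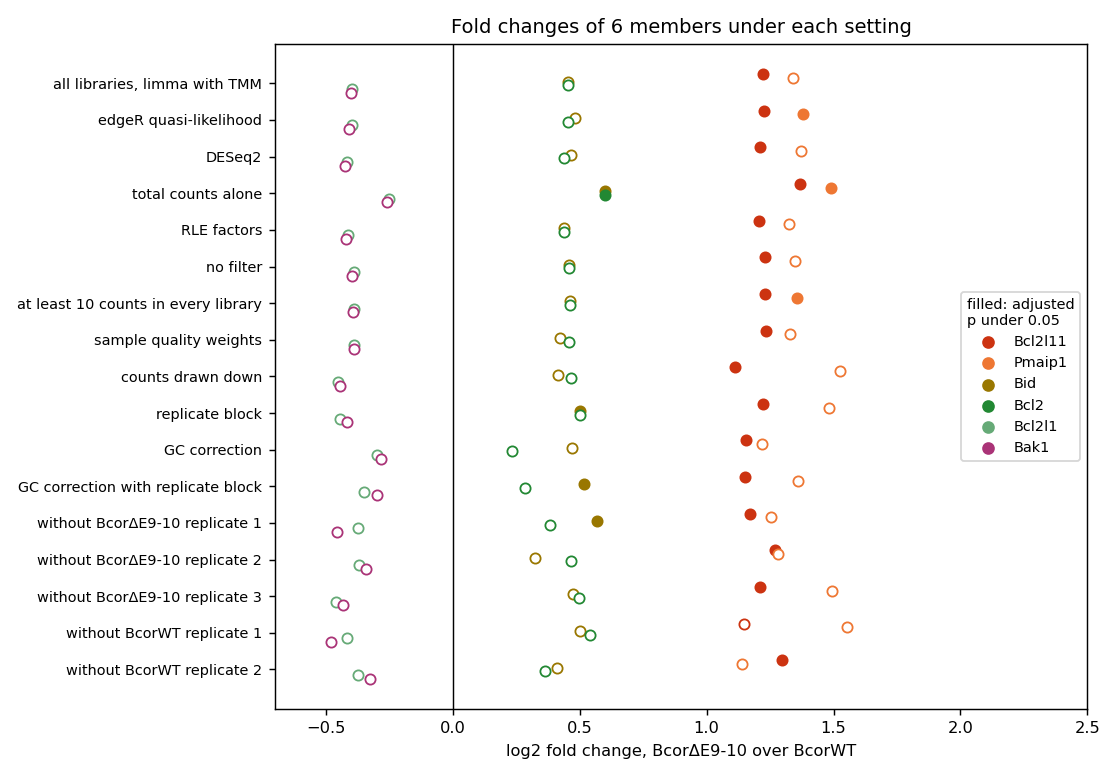
Log2 fold change (x axis) of 6 members, Bcl2l11, Pmaip1, Bid, Bcl2, Bcl2l1 and Bak1, under each fit and without each library (y axis), filled where the adjusted p is under 0.05. Bcl2l11 is filled in all settings except without BcorWT replicate 1, and Bcl2l1 and Bak1 stay below 0 in each.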

How the data were processed

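Total RNA of sorted KL cells was made into QuantSeq 3′ libraries. The authors trimmed reads with cutadapt, mapped them to mm10 (HISAT2) and assigned them to genes with featureCounts of Subread (version 1.5.0-p3) after bcl2fastq (version 2.17.1.14), per the submitters' processing notes. The deposited table holds the resulting whole-number counts without normalisation. The handling of strand and of reads with several alignments is not given in the sources used here. Depth was 5998924 to 8303999 counts, so members with few counts are imprecise.

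Genes were filtered with filterByExpr (minimum count 10, minimum total 15), which left 11766. With TMM scaling, genotype was tested two-sided by limma (version 3.58.1) on voom values, the package named in the methods of the study, in R (version 4.3.3). P-values were adjusted over all genes tested by Benjamini-Hochberg, and a gene was called at an adjusted p under 0.05. CPM are counts per TMM-scaled total in units of 1000000. Alternatives were edgeR (version 4.0.16), DESeq2 (version 1.42.0), other scalings and filters, sample quality weights, equal depth, a replicate block, a lowess correction (span 0.3) on the GC content of the last 300 transcript bases, and leaving out each library. The procedures were tested on simulated data. Symbols and coordinates came from GENCODE M21 and promoter windows from RefSeq. Within-group pairs of libraries differed beyond sampling noise (chi-square per gene 5.94 to 11.1), so none was treated as a library deposited more than once. This does not show that they came from separate animals.

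The 10 members and all lists were chosen with earlier results of these data known. Genes named were the members, called genes of the other lists (at most 4 per pathway list), the 3 genes most like a called member, and Kit, Ly6a and Bcor. Other genes are said to be chosen after their values were seen, or are named for reads or bases shared with a member or for their low counts.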

Additional observations from a re-analysis of the deposited data

How the results depend on the processing

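Bcl2l11 was called in all 11 alternative fits that kept every library (log2 fold change 1.11 to 1.37, adjusted p 0.00521 to 0.0232) and in 4 of 5 that left out 1 (1.15 to 1.30). The count of members called higher, 1, was 2 with edgeR, with at least 10 counts in every library (adding Pmaip1, limma adjusted p = 0.0285), with the replicate block and with the block and GC correction (adding Bid). It was 4 with total counts alone (adding Bcl2, Bid and Pmaip1), where 1210 genes were higher and 197 lower. Leaving out 1 library gave 0 to 2 members, with 0 without BcorWT library 1 and 2 without BcorΔE9-10 library 1. The count of other family genes called, 1, was 0 with total counts alone, GC correction, and GC correction with the block, and 0 to 1 without a library. All genes called, 1189, were 558 to 1200 without a library, with 558 without BcorWT library 1, 723 without BcorΔE9-10 library 3 and 774 without BcorΔE9-10 library 2. Fits without a library have fewer samples. Elsewhere the cause was not tested.

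Values that changed sign were not called in any fit. Bbc3 was 0.10 with total counts alone, 0.032 with GC correction and 0.037 with the block added, and -0.52 to 0.45 without a library. Without a library, Mcl1 was -0.057 to 0.097 and Bax -0.97 to 0.12. The replicate numbers did not pair the libraries (correlations of deviations 0.0573 and 0.0667). The replicate block called 1454 genes, 1087 of them shared in direction with the fit without it.

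With 2 controls, 1 library decides several calls. Bcl2a1b, Pmaip1, Bbc3 and Bax had 7 to 54 counts per library, so counting error is large, and for Bbc3 and Bax the BcorWT libraries also lay far apart.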

Other observations

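Bmf, a BH3-only gene that links the cytoskeleton to cell death, had too few counts for a test but was uneven among the libraries. It had 2, 7 and 39 counts in BcorΔE9-10 libraries 1, 2 and 3 and 7 and 0 counts in BcorWT libraries 1 and 2. BcorΔE9-10 library 3 also had the highest summed level of erythroid markers, 264 CPM, against 66.1 and 148 CPM in the other BcorΔE9-10 libraries and 26.6 and 71.1 CPM in BcorWT. Bmf was chosen after its values were seen, and the link between these values was not tested.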
